A study of Mus musculus with 15 samples.

Results

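SNX-5422 is a small-molecule inhibitor of the chaperone HSP90, and it was applied here to mouse skin shortly after phenylarsine oxide (PAO). PAO is a blistering arsenical whose trivalent arsenic binds pairs of thiols in proteins. The comparison set 3 libraries of skin given PAO and then SNX-5422 against 3 libraries of skin given PAO alone, that is, 6 of the 15 RNA-seq libraries of the series. It covered every gene of the table. Of 53700 genes, 22529 passed the filter on low counts and were tested.

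All libraries came from whole dorsal skin of male SKH-1 hairless mice, taken at 24 h. In the SNX-5422+PAO group, PAO (100 µg per mouse, or 25 µg/cm2, in ethanol) was followed after 15 min by topical SNX-5422 at 20 mg/kg on the injured area. The PAO group received PAO alone, and the control group received the ethanol vehicle. A second pair of groups received 2-chloroethyl ethyl sulfide (CEES, 2 mg per mouse), an analog of sulfur mustard, with or without the same dose of SNX-5422. SNX-5422 was never given on its own in the groups analysed here, and the ages of the mice are not given in the labels. Whether each library stands for its own animal is not stated, so the p-values reflect differences among these samples that could be technical.

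HSP90 folds and stabilises signalling proteins, among them kinases, steroid hormone receptors and transcription factors. When HSP90 is blocked by drugs of this class, the heat shock factor HSF1 is released in many cells and raises HSP70, HSP40 and small heat shock proteins. Trivalent arsenicals also evoke the heat shock response, together with the NRF2 antioxidant programme and metallothioneins. In injured skin, keratinocytes, fibroblasts and recruited myeloid cells then produce cytokines, matrix proteases and wound keratins.

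Each SNX-5422+PAO library held 18106722 to 20512276 counts on genes, and each PAO library 18092110 to 21340178. The whole skin label held, since the keratins Krt14 and Krt5 and the collagen gene Col1a1 were abundant in all 6 libraries (at least 3194, 2795 and 1177 CPM, that is, counts-per-million on TMM-scaled libraries). Mitochondrial ribosomal RNA took 12.3, 17.4 and 17.0% of gene counts in SNX-5422+PAO libraries 1, 2 and 3, against 9.69, 17.7 and 13.0% in PAO libraries 1, 2 and 3 (exact permutation test, two-sided, p = 0.7). Reads outside annotated genes made up 35.2 to 37.1% of those HTSeq counted or set aside in the SNX-5422+PAO group and 38.6 to 39.3% in the PAO group. Genes of skeletal muscle, which lies beneath the dermis, took 10.8 to 12.6% of gene counts in the SNX-5422+PAO group and 8.87 to 9.47% in the PAO group (exact p = 0.1, the smallest that 3 against 3 allows). Many of the genes below had their lowest PAO value in PAO library 2, the PAO library with the most mitochondrial ribosomal RNA. The part that these shares play in the results was not tested beyond the fits that carry them as a covariate. One such covariate, the mean log2 CPM of the fast-fibre and slow-fibre lists (here "the muscle lists"), was 8.01 to 8.70 in SNX-5422+PAO libraries and 6.93 to 7.12 in PAO libraries, so the groups did not overlap in it.

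SNX-5422+PAO skin differed from PAO skin in 1343 genes at a Benjamini-Hochberg adjusted p under 0.05 in edgeR's quasi-likelihood test, which is 5.96% of the genes tested. Of these, 579 were higher (2.57% of genes tested) and 764 were lower (3.39%), and 172 and 268 of them changed more than 2-fold. The lists with many lowered members included matrix proteases, cytokines, myeloid genes, glucocorticoid receptor targets, fibroblast and matrix genes, NRF2 targets and wound genes of the epidermis. Those with many raised members were the cell cycle, skeletal muscle, and nerve and melanocyte lists. The lists were chosen with earlier results of these data known, so a count above the share over all genes can follow from that choice. Expression is given below as CPM, in the order of libraries 1, 2 and 3, and each change is a log2 fold change of SNX-5422+PAO minus PAO with its standard error. PAO is also set against control below, with the same PAO libraries. A fall with SNX-5422 and a rise with PAO are therefore not independent. The median change over all genes tested was -0.01. Scaled by total gene counts instead, that median was -0.14 and the calls split into 335 higher and 1568 lower genes, or 17.6% higher against 43.1%. The count of calls was 566 without SNX-5422+PAO library 2, 586 without SNX-5422+PAO library 3, 661 without PAO library 1 and 600 without PAO library 3. With the muscle lists as covariate 1214 genes were called, of which 323 were among the 1343, and with the muscle share of gene counts as covariate 998 were called, of which 713 were among the 1343. The groups overlapped in neither covariate. The muscle lists covariate counts each gene alike, so slow-fibre genes near 0 in PAO skin, such as Myh7, weigh fully in it. Neither fit can tell how many calls go with the amount of muscle.

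**Figure D1:**
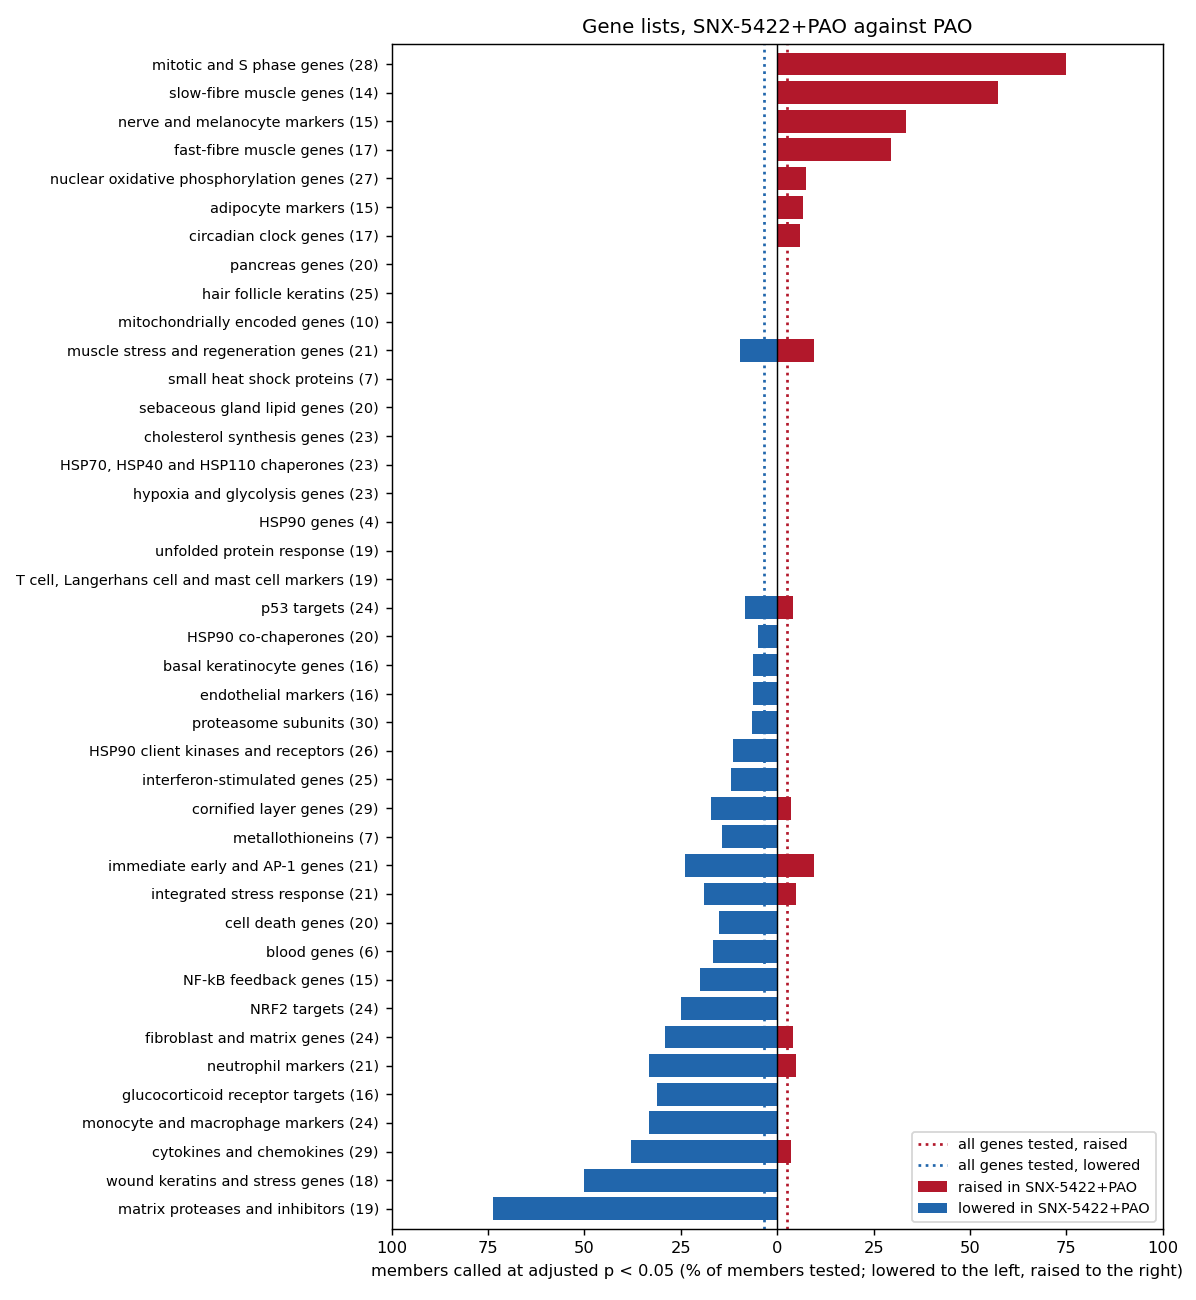
Share of the tested members of each gene list that were called lower (left, blue) or higher (right, red) in SNX-5422+PAO than in PAO skin, with the number of members tested in brackets and dotted lines at the shares over all genes tested (3.39% lower, 2.57% higher). Among the lists drawn, matrix proteases have the largest share called lower, 14 of 19 members, and mitotic and S phase genes the largest share called higher, 21 of 28. The lists were chosen with earlier results of these data known.

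None of the 4 genes of HSP90 itself was called between the groups (median change -0.06). Hsp90aa1, the stress-inducible cytosolic form (ENSMUSG00000021270.14), stood at 184, 135 and 159 CPM in SNX-5422+PAO skin, against 246, 129 and 191 CPM in PAO skin and 70.5, 96.3 and 82.8 CPM in control skin. The values of both PAO-treated groups overlapped and lay above every control value. The change was -0.24 ± 0.17 (adjusted p = 0.494), while PAO alone had raised the gene by 1.18 over control (adjusted p = 0.000218). Hsp90ab1, the constitutive cytosolic form, changed by -0.07 ± 0.09, Hsp90b1 of the endoplasmic reticulum by -0.06 ± 0.11 and Trap1 of mitochondria by 0.13 ± 0.08 (adjusted p = 0.75, 0.824 and 0.359).

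The heat shock genes that PAO had raised were likewise not called. None of 23 HSP70, HSP40 and HSP110 chaperones and none of 7 small heat shock proteins passed the test in either direction (median changes -0.02 and 0.24), although PAO alone had raised 12 and 7 of them over control. In that comparison 20.4% of genes tested were called, 11.9% higher and 8.58% lower. Other fits of SNX-5422+PAO against PAO called a few. With no filter, 1 chaperone was higher and 2 lower, and 1 small heat shock protein was higher and 1 lower. DESeq2 called 1 chaperone higher and 1 lower, and 1 small heat shock protein lower. Total-count scaling called 2 of each list lower, and the fit of only the 6 libraries 1 of each higher. Cryab, a small heat shock protein of muscle and stressed cells, stood at 680.5, 497 and 577 CPM in SNX-5422+PAO skin, against 899.6, 482 and 712 CPM in PAO skin and 102, 98.6 and 103 CPM in control skin. Its change was -0.26 ± 0.18 (adjusted p = 0.471), and the 2 PAO-treated groups overlapped. Hspb1, a small heat shock protein of keratinocytes, changed by -0.51 ± 0.16, and the inducible HSP70 genes Hspa1a and Hspa1b, which are near-identical copies whose reads can be split between them, by -0.67 ± 0.25 and -0.51 ± 0.16 (adjusted p = 0.0725, 0.132 and 0.0785). Without PAO library 2, the lowest of the PAO group in all 3, they were called lower (adjusted p = 0.00278, 0.00481 and 0.00297). The co-chaperone Bag3 changed by -0.14 ± 0.13, the HSP40 gene Dnajb1 by -0.07 ± 0.07 and the HSP110 gene Hsph1 by -0.02 ± 0.17, and Hsph1 had the highest p of the 3 (adjusted p = 0.609, 0.668 and 0.972). After Hspa1b and Hspb1, the lowest p-values of the chaperone and small heat shock lists belonged to the HSP40 gene Dnajb5 (0.49 ± 0.16, adjusted p = 0.0866) and the small heat shock protein gene Hspb6 of muscle (0.43 ± 0.15, adjusted p = 0.107), neither of which was called. None of 19 genes of the unfolded protein response was called (median -0.09), and the lowest p-values were those of Xbp1, its transcription factor (-0.31 ± 0.11, adjusted p = 0.111), and Creld2, one of its targets (-0.26 ± 0.16, adjusted p = 0.378). Because no heat shock gene was called, no heat shock element was searched for in their promoters.

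Among 20 co-chaperones of HSP90 a single gene was called, Fkbp5, which binds steroid receptor complexes and is also a target of the glucocorticoid receptor. It stood at 40.7, 36.5 and 41.1 CPM in SNX-5422+PAO skin, against 60.4, 46.2 and 57.0 CPM in PAO skin (-0.47 ± 0.11, adjusted p = 0.0216). Of 26 genes that encode client proteins of HSP90, 3 were lower and none higher (median -0.09). The transcription factor gene Stat3 fell to 268, 222 and 235 CPM in SNX-5422+PAO skin, against 357, 337 and 351 CPM in PAO skin (-0.53 ± 0.08, adjusted p = 0.0015), and its SNX-5422+PAO values overlapped the 222, 212 and 213 CPM of control skin. The growth factor receptor gene Igf1r changed by -0.29 ± 0.07 and the aryl hydrocarbon receptor gene Ahr by -0.31 ± 0.08. HSP90 acts on client proteins rather than on their messages, and no protein was measured here. The calls of Fkbp5, Igf1r and Ahr ended without SNX-5422+PAO library 2 or 3 or without PAO library 1 or 3, that of Igf1r also without SNX-5422+PAO library 1 and that of Ahr also without PAO library 2 (adjusted p up to 0.108, 0.0988 and 0.167), whereas that of Stat3 held in all 6 leave-one-out fits.

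Matrix proteases and their inhibitors, which remodel the dermal matrix after injury, had many lowered members. Of 19 genes, 14 were lower and none higher (median change -1.01). The stromelysin gene Mmp3 (ENSMUSG00000043613.9) stood at 29.7, 14.8 and 22.1 CPM in SNX-5422+PAO skin, against 178, 66.4 and 136 CPM in PAO skin and 5.35, 6.97 and 7.07 CPM in control skin (-2.52 ± 0.33, adjusted p = 0.000593). The collagenase gene Mmp13 stood at 12.8, 6.71 and 9.37 CPM in SNX-5422+PAO skin, against 77.3, 33.9 and 60.6 CPM in PAO skin and 15.4, 7.62 and 12.9 CPM in control skin (-2.57 ± 0.34, adjusted p = 0.000628). For both genes every SNX-5422+PAO value lay below every PAO value, and for Mmp13 the SNX-5422+PAO values overlapped those of control skin.

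The gelatinase genes followed. Mmp9, a gelatinase of neutrophils and keratinocytes, fell to 33.0, 24.3 and 27.4 CPM in SNX-5422+PAO skin, against 66.5, 52.3 and 63.5 CPM in PAO skin (-1.11 ± 0.17). Mmp2, the gelatinase of fibroblasts, fell to 77.8, 45.6 and 56.5 CPM in SNX-5422+PAO skin, against 213, 92.7 and 163 CPM in PAO skin (-1.38 ± 0.23). The membrane-bound collagenase gene Mmp14 changed by -0.64 ± 0.12. The stromelysin gene Mmp10 changed by -2.34 ± 0.55, the neutrophil collagenase gene Mmp8 by -1.97 ± 0.42, the aggrecanase gene Adamts4 by -2.05 ± 0.47 and the inhibitor gene Timp1 by -1.01 ± 0.24 (adjusted p = 0.0189, 0.0113, 0.0159 and 0.0178). These 4 calls ended without SNX-5422+PAO library 2 or 3 or without PAO library 1, and those of Adamts4 and Timp1 also without PAO library 3. The list count was 7 without SNX-5422+PAO library 2, without SNX-5422+PAO library 3 or without PAO library 1, and 9 without PAO library 3. With the muscle share as covariate 9 were lower and 1 higher, and with the muscle lists as covariate 5 were lower and 1 higher.

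Several metalloprotease promoters are known to hold a site for AP-1, the FOS and JUN dimer that stress kinases activate. RefSeq sequences of the 150 bases before the start site (mouse build GRCm38.p6) were at hand for 12 of the 19 genes, matched by symbol. The AP-1 letters TGANTCA, which read alike on both strands, were in 5 of these 12 and in 4.24% of 32851 promoter windows of the same length. The motif was chosen with the expression results known. The windows of 3 lowered genes that hold it are shown because their messages are the ones described above, with the motif in capitals.
Mmp3 (chr9:7445672-7445821, plus strand): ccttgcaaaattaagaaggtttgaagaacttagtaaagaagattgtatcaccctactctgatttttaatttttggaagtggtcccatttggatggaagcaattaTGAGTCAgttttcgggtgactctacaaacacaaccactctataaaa
Mmp10 (chr9:7502192-7502341, plus strand): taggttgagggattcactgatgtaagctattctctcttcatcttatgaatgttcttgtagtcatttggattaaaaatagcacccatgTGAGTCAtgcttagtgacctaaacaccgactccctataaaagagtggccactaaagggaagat
Mmp13 (chr9:7272364-7272513, plus strand): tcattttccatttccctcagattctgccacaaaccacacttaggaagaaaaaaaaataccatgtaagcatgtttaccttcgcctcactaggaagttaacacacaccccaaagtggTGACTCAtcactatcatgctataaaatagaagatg

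Of the 9 called genes with a window, 3 hold the motif, and the match is a description of the letters only. The genes for AP-1 and other immediate early factors moved in both directions, with 2 of 21 higher and 5 lower (median -0.18). Atf3, a stress factor of the same protein class, rose to 55.3, 73.6 and 65.3 CPM in SNX-5422+PAO skin, against 24.8, 35.5 and 30.7 CPM in PAO skin and 15.8, 25.2 and 19.7 CPM in control skin (1.09 ± 0.16, adjusted p = 0.00136). The nuclear receptor gene Nr4a2 rose by 1.28 ± 0.36, with 17.5, 3.86 and 7.69 CPM in SNX-5422+PAO skin against 4.00, 3.21 and 4.71 CPM in PAO skin. SNX-5422+PAO library 1 stood apart and library 2 overlapped PAO, and the call ended in 5 of 6 leave-one-out fits, all but the one without SNX-5422+PAO library 2 (adjusted p up to 0.266). Ier3, an early response gene, changed by -0.82 ± 0.16 and Myc, the growth regulator, by -0.50 ± 0.10. Dusp5, a phosphatase of ERK kinases, changed by -0.69 ± 0.15, a call that ended without SNX-5422+PAO library 3 (adjusted p = 0.0545). The 2 other lowered genes were the AP-1 subunit gene Junb (-0.45 ± 0.10) and the zinc finger gene Klf6 (-0.39 ± 0.09). The list count of lowered genes was 2 without SNX-5422+PAO library 3 and 3 without SNX-5422+PAO library 2 or PAO library 1.

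**Figure D2:**
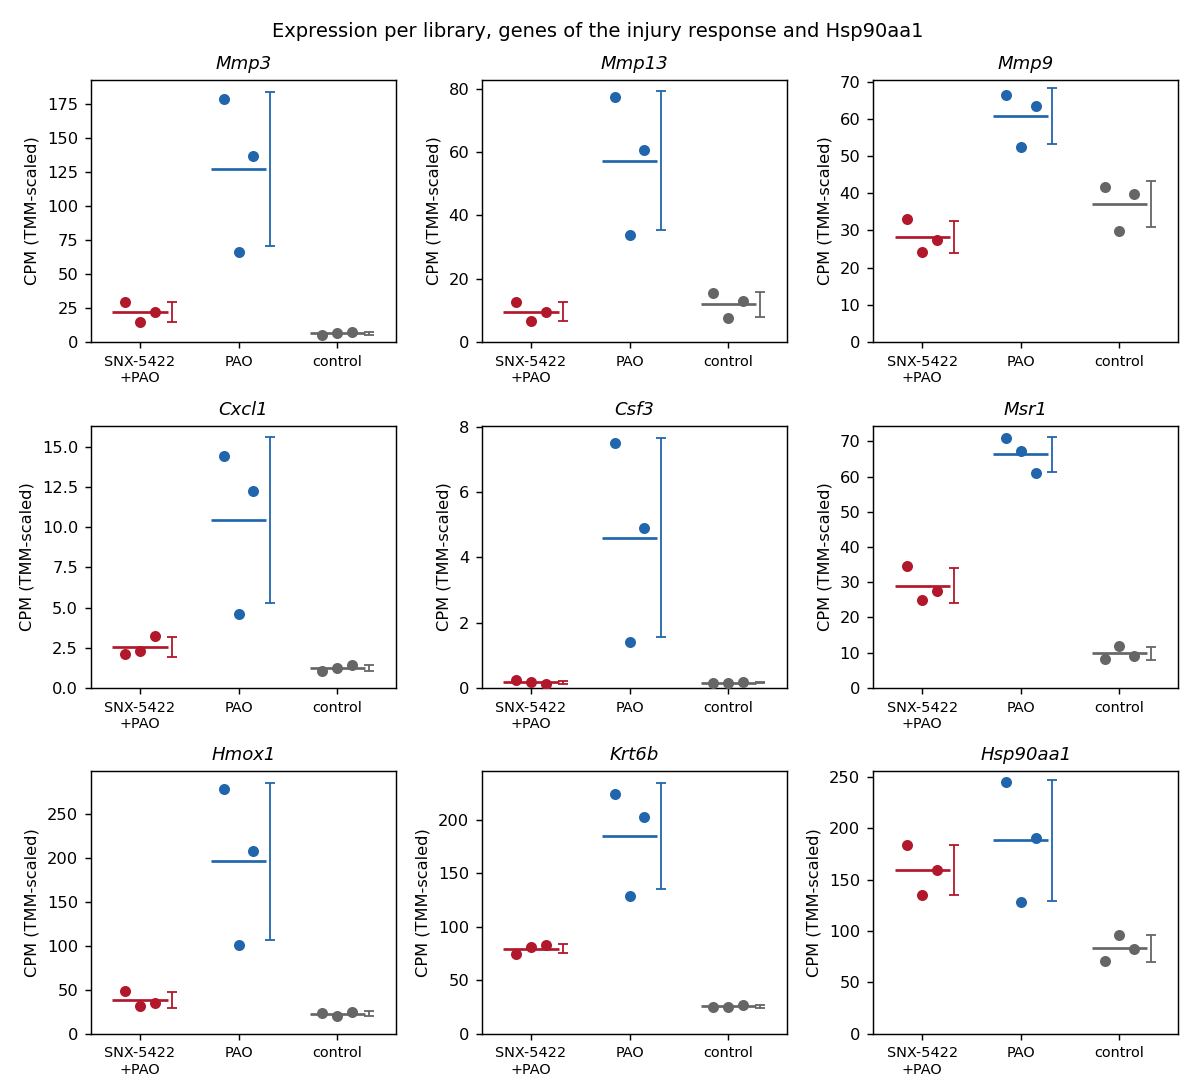
CPM in each library of SNX-5422+PAO, PAO and control skin for 8 genes that PAO raised and for Hsp90aa1, with points for libraries 1, 2 and 3 from left to right, a line at the mean and a bar of 1 SD (n = 3). For Mmp3 the 3 SNX-5422+PAO values lie between 14.8 and 29.7 CPM and the 3 PAO values between 66.4 and 178 CPM, whereas the values of Hsp90aa1 in the 2 groups overlap.

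Of 29 cytokine and chemokine genes, 11 were lower and 1 was higher (median -0.73). Csf3, the growth factor of neutrophils, stood at 0.228, 0.178 and 0.135 CPM in SNX-5422+PAO skin, against 7.5, 1.41 and 4.91 CPM in PAO skin and 0.161, 0.139 and 0.195 CPM in control skin (-4.63 ± 0.60, adjusted p = 0.000593). Its SNX-5422+PAO values were as low as those of control. The neutrophil chemokine gene Cxcl1 stood at 2.11, 2.32 and 3.24 CPM in SNX-5422+PAO skin, against 14.4, 4.62 and 12.2 CPM in PAO skin and 1.07, 1.25 and 1.43 CPM in control skin (-2.05 ± 0.31, adjusted p = 0.00156). Il6, a cytokine of the acute phase, stood at 0.854, 0.119 and 0.472 CPM in SNX-5422+PAO skin, against 6.72, 0.705 and 5.97 CPM in PAO skin (-3.21 ± 0.66, adjusted p = 0.00959), with PAO library 2 below SNX-5422+PAO library 1. Its call ended without SNX-5422+PAO library 2 (adjusted p = 0.0548), and its change was -3.97 without SNX-5422+PAO library 1.

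Other called members of the list had wider errors. Cxcl5, a further neutrophil chemokine, changed by -1.82 ± 0.40, the epithelial cytokine gene Il24 by -1.89 ± 0.42, the gene of oncostatin M (Osm), a relative of interleukin-6, by -2.01 ± 0.47, and the macrophage growth factor gene Csf1 by -0.71 ± 0.16 (adjusted p = 0.0129, 0.0138, 0.0178 and 0.0132). These 4 calls ended without SNX-5422+PAO library 2 or PAO library 1, all but that of Csf1 also without SNX-5422+PAO library 3, and that of Osm also without PAO library 3. Tnf, by contrast, was higher, at 7.57, 6.83 and 7.15 CPM in SNX-5422+PAO skin against 2.83, 4.55 and 3.64 CPM in PAO skin and 4.12, 3.49 and 4.41 CPM in control skin (0.97 ± 0.24, adjusted p = 0.0227). Its call held only without PAO library 2 among the 6 leave-one-out fits (adjusted p up to 0.108 in the others). Il1b, the interleukin of myeloid cells, was not called, with 19.9, 10.7 and 12.7 CPM in SNX-5422+PAO skin and 15.3, 11.4 and 12.0 CPM in PAO skin (0.17 ± 0.30). The number of lowered cytokine genes was 2 without SNX-5422+PAO library 2, 5 without SNX-5422+PAO library 3, 3 without PAO library 1 and 7 without PAO library 3.

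Of 15 genes in the feedback of NF-kB, the transcription factor of inflammation, 3 were lower and none higher (median -0.20). Bcl3, a nuclear partner of NF-kB, fell to 16.0, 14.4 and 18.2 CPM in SNX-5422+PAO skin, against 33.8, 34.9 and 30.5 CPM in PAO skin and 15.3, 14.1 and 14.9 CPM in control skin (-1.03 ± 0.15, adjusted p = 0.000953). Zc3h12a, which degrades cytokine messages, changed by -0.66 ± 0.13. The adhesion molecule gene Icam1 changed by -0.47 ± 0.11 (adjusted p = 0.0157), a call that ended without SNX-5422+PAO library 2 or 3 or PAO library 1 or 3. Without any of those 4 libraries 2 genes of the list were lower, and 4 without PAO library 2. Targets of the glucocorticoid receptor, itself a client of HSP90, included 5 lower genes of 16 and none higher (median -0.16). The changes of this list lay between -1.93 and 0.27, with 5 above 0 and 11 below. Any part of the receptor in these falls was not tested. Cebpd, an acute-phase transcription factor gene, fell to 17.8, 14.6 and 14.0 CPM in SNX-5422+PAO skin, against 34.9, 23.5 and 33.3 CPM in PAO skin (-0.98 ± 0.14), and Errfi1, a brake on the EGF receptor, changed by -0.47 ± 0.09. Without SNX-5422+PAO library 2 or 3 or PAO library 1 or 3 the number was 3.

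Markers of neutrophils were lower in 7 of 21 genes and higher in 1 (median -1.0). In bulk tissue, fewer cells of a type and less RNA per cell cannot be told apart. Lcn2, a siderophore-binding protein of neutrophils and stressed keratinocytes, fell to 42.0, 17.2 and 25.1 CPM in SNX-5422+PAO skin, against 141, 72.0 and 109 CPM in PAO skin and 8.61, 7.02 and 7.14 CPM in control skin (-1.93 ± 0.28, adjusted p = 0.00115). The granule protein gene Ngp stood at 0, 0.416 and 0.135 CPM in SNX-5422+PAO skin, against 5.22, 1.03 and 3.29 CPM in PAO skin (-4.08 ± 0.76, adjusted p = 0.00508), and its change was -3.49 without SNX-5422+PAO library 1 and -5.56 without library 2. Retnlg, a marker of mature neutrophils, fell to 0.740, 0.475 and 0.944 CPM in SNX-5422+PAO skin, against 9.28, 3.72 and 5.77 CPM in PAO skin (-3.12 ± 0.73). The calgranulin gene S100a8 fell to 6.04, 3.98 and 4.52 CPM in SNX-5422+PAO skin, against 27.1, 21.9 and 23.9 CPM in PAO skin (-2.32 ± 0.52), and its partner S100a9 changed by -1.97 ± 0.55 (adjusted p = 0.0183, 0.014 and 0.0437). The calls of these 3 ended without SNX-5422+PAO library 2 or 3, those of Retnlg and S100a9 also without PAO library 1, and that of S100a9 also without PAO library 2 or 3. Clec4e, a receptor of activated myeloid cells that senses dead cells, rose to 28.7, 16.7 and 22.6 CPM in SNX-5422+PAO skin, against 8.78, 9.81 and 9.36 CPM in PAO skin and 3.85, 5.81 and 3.79 CPM in control skin (1.28 ± 0.24, adjusted p = 0.00489). The count of lowered neutrophil markers was 3 without SNX-5422+PAO library 2 or 3 and 4 without PAO library 1.

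Markers of monocytes and macrophages were lower in 8 of 24 genes and higher in none (median -0.63). Saa3, an acute-phase apolipoprotein of macrophages and fat, stood at 50.5, 25.8 and 36.9 CPM in SNX-5422+PAO skin, against 274, 78.2 and 182 CPM in PAO skin and 2.68, 3.25 and 3.18 CPM in control skin (-2.24 ± 0.34, adjusted p = 0.00156). The scavenger receptor gene Msr1 stood at 34.7, 24.9 and 27.6 CPM in SNX-5422+PAO skin, against 70.9, 67.1 and 61.0 CPM in PAO skin and 8.35, 11.8 and 9.18 CPM in control skin (-1.19 ± 0.18, adjusted p = 0.00159), with SNX-5422+PAO skin between the other groups. Spp1, the gene of osteopontin, fell to 24.1, 15.7 and 21.2 CPM in SNX-5422+PAO skin, against 137, 43.1 and 99.1 CPM in PAO skin (-2.19 ± 0.34). The mannose receptor gene Mrc1 changed by -1.09 ± 0.22 and the chitinase-like gene Chil3 by -2.07 ± 0.47. The call of Mrc1 ended without SNX-5422+PAO library 2 (adjusted p = 0.0516), and that of Chil3 without SNX-5422+PAO library 2 or 3 or PAO library 1 or 3 (adjusted p up to 0.079). The list count was 4 without SNX-5422+PAO library 2 and 5 without SNX-5422+PAO library 3, PAO library 1 or PAO library 3. None of 19 markers of T cells, Langerhans cells and mast cells was called (median -0.39), the lowest p-values being those of the mast cell protease gene Cma1 (-1.83 ± 0.60, adjusted p = 0.0888) and the mast cell receptor gene Ms4a2 (-2.40 ± 0.89, adjusted p = 0.135).

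Among the genes with the largest falls were also Slfn4, a myeloid gene of the Schlafen family, which fell to 9.85, 6.00 and 9.44 CPM in SNX-5422+PAO skin, against 84.0, 17.8 and 53.1 CPM in PAO skin (-2.62 ± 0.41, adjusted p = 0.00182). It was 1 of 3 interferon-stimulated genes that fell among 25 (median -0.36). The antiviral gene Rsad2 fell to 3.76, 2.91 and 3.91 CPM in SNX-5422+PAO skin, against 21.6, 4.55 and 12.1 CPM in PAO skin (-1.86 ± 0.38). Oasl1, a gene of the oligoadenylate synthetase family, fell to 3.64, 3.21 and 2.90 CPM in SNX-5422+PAO skin, against 15.6, 4.17 and 9.41 CPM in PAO skin (-1.58 ± 0.35). The call of Rsad2 ended without SNX-5422+PAO library 2 or PAO library 1 (change -1.25 without PAO library 1), and that of Oasl1 also without SNX-5422+PAO library 3. The list count was 1 without SNX-5422+PAO library 2 or PAO library 1, and 8 without PAO library 2. Fgf23, a phosphate-regulating hormone made mainly in bone, fell to 0.569, 0.653 and 1.08 CPM in SNX-5422+PAO skin, against 7.34, 1.28 and 7.24 CPM in PAO skin and 0.161, 0.139 and 0.0649 CPM in control skin (-2.81 ± 0.58, adjusted p = 0.00919). Klhdc8a, a kelch-domain gene, fell to 0.854, 1.60 and 1.48 CPM in SNX-5422+PAO skin, against 8.22, 8.27 and 9.11 CPM in PAO skin and 1.61, 0.790 and 1.65 CPM in control skin (-2.7 ± 0.30, adjusted p = 0.000172). Lvrn, an aminopeptidase gene, fell to 3.87, 2.91 and 2.83 CPM in SNX-5422+PAO skin, against 25.8, 5.26 and 17.3 CPM in PAO skin (-2.33 ± 0.49), a call that ended without SNX-5422+PAO library 2 or 3 or PAO library 1 (adjusted p up to 0.0558).

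Of 24 targets of NRF2, the transcription factor of the antioxidant response, 6 were lower and none higher (median -0.17). Hmox1, the haem oxygenase that arsenicals induce (ENSMUSG00000005413.9), stood at 48.5, 31.2 and 34.8 CPM in SNX-5422+PAO skin, against 279, 101 and 208 CPM in PAO skin and 23.5, 20.1 and 25.0 CPM in control skin (-2.36 ± 0.27, adjusted p = 0.000224). Every SNX-5422+PAO value of Hmox1 lay below every PAO value and above every control value. The sulfiredoxin gene Srxn1 fell to 75.4, 55.5 and 65.5 CPM in SNX-5422+PAO skin, against 171, 85.0 and 139.9 CPM in PAO skin (-1.01 ± 0.19). The thioredoxin reductase gene Txnrd1 fell to 169, 147 and 155 CPM in SNX-5422+PAO skin, against 285, 194 and 277 CPM in PAO skin (-0.68 ± 0.12). The other 3 were Gclm of glutathione synthesis (-0.59 ± 0.14) and the ferritin genes, which have many near-identical copies in the genome, Ftl1 (-0.46 ± 0.13) and Fth1 (-0.54 ± 0.15), whose calls ended without SNX-5422+PAO library 2 or 3 or PAO library 1 or 3, that of Ftl1 also without PAO library 2. That left 3 lowered genes without any of those 4 libraries.

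Of 7 metallothionein and zinc transporter genes, 4 changes were above 0 and 3 below (median 0.23, changes between -0.97 and 2.11). Only 1 was called, the metal-binding Mt1, which fell to 220.1, 133 and 162 CPM in SNX-5422+PAO skin, against 353, 311 and 326 CPM in PAO skin and 67.9, 44.8 and 49.2 CPM in control skin (-0.94 ± 0.20, adjusted p = 0.0104). The call ended without SNX-5422+PAO library 2 or 3 (adjusted p up to 0.0572). Of 21 genes of the integrated stress response, 4 were lower and 1, Atf3, was higher (median -0.32). The stress factor gene Atf4 fell to 120.1, 117 and 115 CPM in SNX-5422+PAO skin, against 173, 136 and 163 CPM in PAO skin (-0.42 ± 0.09). Its target Trib3 fell to 4.78, 3.33 and 4.05 CPM in SNX-5422+PAO skin, against 11.1, 5.19 and 9.21 CPM in PAO skin (-1.07 ± 0.24), and the stress hormone gene Gdf15 fell to 0.285, 0.416 and 0.135 CPM in SNX-5422+PAO skin, against 3.39, 0.770 and 2.38 CPM in PAO skin (-2.93 ± 0.64). Chac1, a glutathione-degrading enzyme, changed by -0.73 ± 0.19. Each of these 4 calls ended in at least 2 leave-one-out fits, and the list count was 0 without SNX-5422+PAO library 3 or PAO library 1, 1 without SNX-5422+PAO library 2 or PAO library 3, and 7 without PAO library 2. Of 24 p53 targets, 2 were lower, the kinase gene Plk2 (-0.60 ± 0.11) and the cell cycle inhibitor gene Cdkn1a (-0.50 ± 0.11), and 1 was higher, Phlda3 (0.48 ± 0.11). The call of Cdkn1a ended without SNX-5422+PAO library 2 or PAO library 1 or 3, and that of Phlda3 without SNX-5422+PAO library 1 or 3 or PAO library 1 (adjusted p up to 0.0739 and 0.0991). Of 30 proteasome subunits, 2 were lower, Psmd11 (-0.35 ± 0.08) and Psmd3 (-0.28 ± 0.07), and both calls ended without SNX-5422+PAO library 2 or 3 or PAO library 1 or 3. Of 20 cell death genes, 3 were lower, namely the survival gene Bcl2l1 (-0.47 ± 0.09), the inflammatory caspase gene Casp4 (-0.55 ± 0.13) and the gasdermin gene Gsdma (-0.63 ± 0.16). The call of Gsdma ended in all 6 leave-one-out fits and that of Casp4 without SNX-5422+PAO library 2 or 3 or PAO library 1.

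In the epidermis, 9 of 18 wound keratins and stress genes were lower and none higher (median -0.97), and 3 of the 9 (Lcn2, S100a8 and S100a9) are also neutrophil markers. Krt6b, a keratin of wound-edge and hyperproliferative epidermis, stood at 74.7, 81.4 and 82.9 CPM in SNX-5422+PAO skin, against 224, 129 and 203 CPM in PAO skin and 24.8, 24.9 and 27.0 CPM in control skin (-1.22 ± 0.26, adjusted p = 0.012). Its relative Krt6a stood at 316, 375 and 389 CPM in SNX-5422+PAO skin, against 634, 500.1 and 594 CPM in PAO skin (-0.68 ± 0.16). Its partner Krt16 stood at 230.0, 268 and 267 CPM in SNX-5422+PAO skin, against 517, 410.1 and 492 CPM in PAO skin (-0.89 ± 0.21). For all 3 keratins the SNX-5422+PAO values lay between those of PAO and control skin without overlap. Krt6a and Krt6b are close paralogs, so their reads may be shared. The call of Krt6b ended without PAO library 1 (adjusted p = 0.0541), that of Krt6a without SNX-5422+PAO library 1 or 2 or PAO library 1 or 3, and that of Krt16 without SNX-5422+PAO library 2 or 3 or PAO library 1 or 3.

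The wound list held 3 ligands of the EGF receptor, which drive keratinocyte migration, and all 3 were lower, whereas further ligands of that receptor were in no list. Areg stood at 1.99, 2.20 and 2.7 CPM in SNX-5422+PAO skin, against 10.2, 5.77 and 8.81 CPM in PAO skin and 4.01, 3.21 and 4.54 CPM in control skin (-1.85 ± 0.25, adjusted p = 0.000628). Every SNX-5422+PAO value was below every control value. Hbegf fell to 15.0, 20.8 and 16.7 CPM in SNX-5422+PAO skin, against 32.5, 31.2 and 30.1 CPM in PAO skin (-0.84 ± 0.13, adjusted p = 0.00152). Ereg fell to 1.42, 1.01 and 1.75 CPM in SNX-5422+PAO skin, against 3.33, 3.46 and 3.29 CPM in PAO skin and 4.39, 2.83 and 4.64 CPM in control skin (-1.27 ± 0.25). These 3 calls held in all 6 leave-one-out fits. The count of the wound list was 5 without SNX-5422+PAO library 2 or PAO library 1.

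Genes of the cornified layer, the outer barrier, were lower in 5 of 29 and higher in 1 (median -0.43), after PAO alone had lowered all 29 against control (8.58% of all genes fell in that comparison). Tgm1, the transglutaminase that cross-links the envelope, stood at 8.88, 11.5 and 13.1 CPM in SNX-5422+PAO skin, against 24.4, 23.9 and 21.1 CPM in PAO skin and 46.5, 27.2 and 40.5 CPM in control skin (-1.05 ± 0.24, adjusted p = 0.0142). The desquamation protease gene Klk7 stood at 75.5, 76.2 and 77.6 CPM in SNX-5422+PAO skin, against 106, 121 and 107 CPM in PAO skin and 206, 165 and 204 CPM in control skin (-0.54 ± 0.11, adjusted p = 0.0085). Both were thus further from control in SNX-5422+PAO skin than in PAO skin. Cdsn, an adhesion protein of the cornified layer, changed by -1.60 ± 0.37 and Ivl, the gene of involucrin, by -0.72 ± 0.19. Rptn, a precursor of the envelope, rose to 14.0, 11.5 and 17.7 CPM in SNX-5422+PAO skin, against 3.78, 6.93 and 4.35 CPM in PAO skin and 17.6, 9.25 and 18.1 CPM in control skin (1.53 ± 0.36, adjusted p = 0.0189). The calls of Cdsn and Ivl ended in 4 and 5 leave-one-out fits, and that of Rptn without SNX-5422+PAO library 3 or PAO library 1 or 3, while the list held 2 lowered genes without SNX-5422+PAO library 3 or PAO library 1 or 3, and 3 without SNX-5422+PAO library 2 or PAO library 2. Tmprss11g, a serine protease gene of squamous epithelia that is in none of the lists, fell to 1.77, 0.713 and 1.08 CPM in SNX-5422+PAO skin, against 4.22, 5.58 and 5.26 CPM in PAO skin and 5.83, 2.83 and 5.68 CPM in control skin (-2.07 ± 0.35, adjusted p = 0.00279).

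In the dermis, 7 of 24 fibroblast and matrix genes were lower and 1 was higher (median -0.48). Pdgfra, the growth factor receptor of dermal fibroblasts, fell to 48.9, 25.8 and 37.6 CPM in SNX-5422+PAO skin, against 154, 54.1 and 116 CPM in PAO skin and 31.1, 20.7 and 29.5 CPM in control skin (-1.53 ± 0.29, adjusted p = 0.00577), and Pdgfrb, found also on pericytes, changed by -1.30 ± 0.26. The hyaluronan synthase gene Has2 fell to 5.07, 4.69 and 4.72 CPM in SNX-5422+PAO skin, against 8.72, 9.75 and 8.66 CPM in PAO skin and 5.14, 4.83 and 4.77 CPM in control skin (-0.90 ± 0.13, adjusted p = 0.00129). Its SNX-5422+PAO values were at the level of control. Ccn1, a matricellular gene, changed by -0.78 ± 0.14, and Col1a1, the main fibrillar collagen, by -0.76 ± 0.21, a call that ended without SNX-5422+PAO library 2 or 3 or PAO library 1 or 3. Fn1, the gene of fibronectin, was higher, at 949, 652 and 747 CPM in SNX-5422+PAO skin against 439.6, 454 and 439.8 CPM in PAO skin (0.82 ± 0.23, adjusted p = 0.0483), and its call ended in all 6 leave-one-out fits. The count of lowered genes in this list was 4 without any of those same 4 libraries and 12 without PAO library 2. Of 16 endothelial markers all changes were below 0 (median -0.76), yet only Selp, the gene of P-selectin, was called, at 2.16, 1.01 and 1.48 CPM in SNX-5422+PAO skin against 9.22, 2.37 and 8.96 CPM in PAO skin (-2.14 ± 0.41, adjusted p = 0.00643). That list held 10 lowered genes without PAO library 2, 6 without SNX-5422+PAO library 1 and 10 with no filter on low counts. Its median was -0.39 with the mitochondrial ribosomal RNA share as covariate. The list took 0.0230, 0.0116 and 0.0152% of gene counts in SNX-5422+PAO libraries 1, 2 and 3, against 0.0452, 0.0156 and 0.0327% in PAO libraries 1, 2 and 3, with PAO library 2 lowest of its group. Of 6 blood genes, the haemoglobin gene Hbb-bs, which shares reads with its near-identical neighbour, was called lower (-2.37 ± 0.63), with 6.32, 2.14 and 3.03 CPM in SNX-5422+PAO skin against 34.2, 4.49 and 20.8 CPM in PAO skin, and the call ended without SNX-5422+PAO library 2 or 3 or PAO library 1 or 3.

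Most genes of the cell cycle list rose. Of 28 mitotic and S phase genes, 21 were higher and none lower (median 0.53), all 28 changes were above 0, and in 25 every SNX-5422+PAO value exceeded every PAO value, where 11.7% of all genes did so. Mki67, the proliferation marker (ENSMUSG00000031004.9), stood at 322, 456 and 410.2 CPM in SNX-5422+PAO skin, against 272, 214 and 232 CPM in PAO skin and 338, 314 and 315 CPM in control skin (0.73 ± 0.11, adjusted p = 0.00182). The checkpoint kinase gene Bub1 stood at 14.1, 19.2 and 16.9 CPM in SNX-5422+PAO skin, against 10.2, 8.91 and 9.16 CPM in PAO skin and 12.0, 11.8 and 9.67 CPM in control skin (0.83 ± 0.13). The kinetochore motor gene Cenpe stood at 36.1, 55.6 and 49.5 CPM in SNX-5422+PAO skin, against 29.6, 28.2 and 26.9 CPM in PAO skin and 30.7, 33.1 and 33.9 CPM in control skin (0.74 ± 0.12). In all 3 genes SNX-5422+PAO library 2 was the highest of all 9 libraries and library 1 the lowest of its group.

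The rise covered mitosis and DNA replication. Ccnb1, the mitotic cyclin, rose by 0.70 ± 0.13, Top2a, the topoisomerase of dividing cells, by 0.60 ± 0.12, the cyclin gene Ccnb2 by 0.61 ± 0.16 and its kinase gene Cdk1 by 0.64 ± 0.18, and Mcm4 of the replicative helicase by 0.37 ± 0.08. The changes in this list lay between 0.25 and 0.83, which is below 2-fold. The calls of Ccnb2 and Cdk1 ended in 4 and 5 leave-one-out fits (adjusted p up to 0.173 and 0.206) and that of Mcm4 without SNX-5422+PAO library 2 (adjusted p = 0.0615). The list count was 9 without SNX-5422+PAO library 2, 11 without SNX-5422+PAO library 3, 13 without PAO library 3 and 11 with scaling by total gene counts, 14 with the muscle share as covariate and 7 with the muscle lists as covariate, and none was lower under any of them. Against the same control libraries, the median log2 fold change of the list was 0.41 in SNX-5422+PAO skin and -0.13 in PAO skin.

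**Figure D3:**
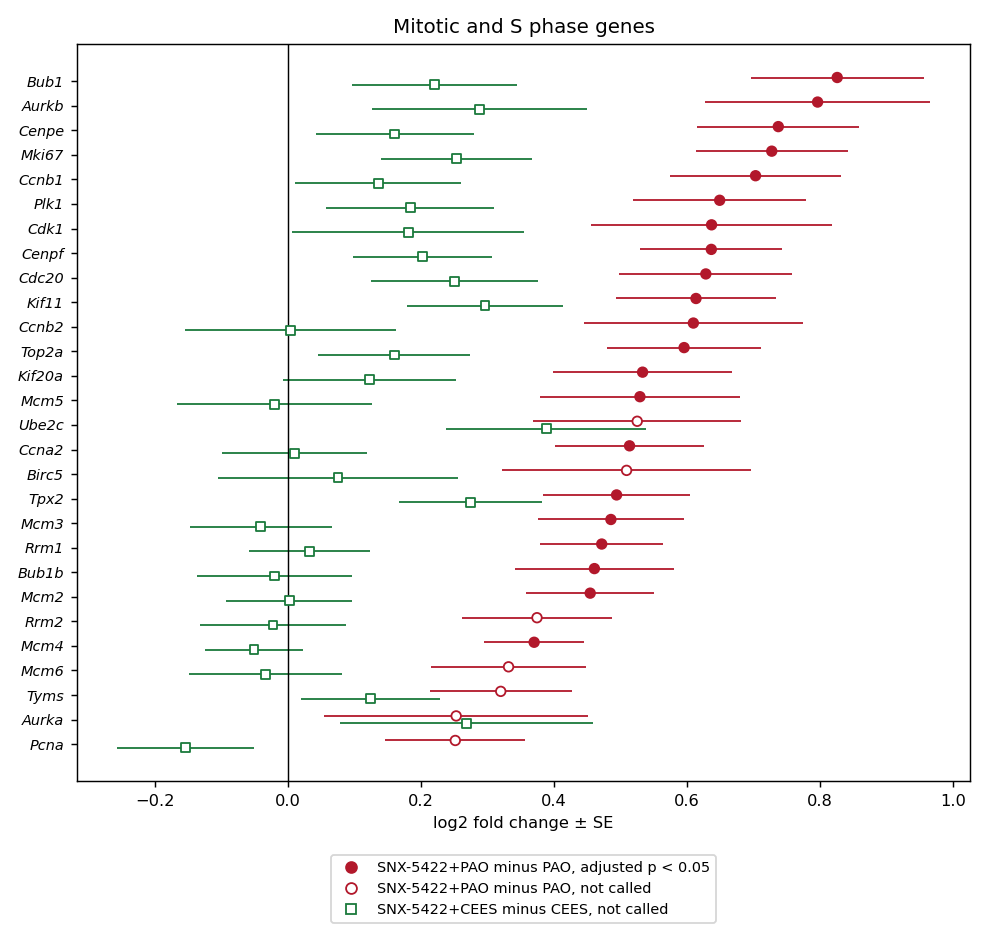
Log2 fold change with its standard error for 28 mitotic and S phase genes, for SNX-5422+PAO minus PAO (red circles, filled where called) and for SNX-5422+CEES minus CEES (green squares). All 28 red circles lie above 0, between 0.25 and 0.83, and no green square is called.

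Promoters of mitotic genes often hold CCAAT boxes, which the factor NF-Y binds. Windows of 150 bases before the start site were at hand for 23 of the 28 genes, and the letters CCAAT, on either strand, were in 20 of them, including 15 of the 16 called genes with a window, against 24.5% of all 32851 windows. The letters TTTGAA of the cell cycle homology region, on either strand, were in 7 of the 23 and in 9.07% of all windows. No match of one overlapped a match of the other in these windows. Both motifs were chosen with the results known. The windows of 3 raised genes are shown with CCAAT, or ATTGG where the box is on the other strand, in capitals, since they show how many copies one such promoter can carry.
Cdk1 (chr10:69352913-69353062, minus strand): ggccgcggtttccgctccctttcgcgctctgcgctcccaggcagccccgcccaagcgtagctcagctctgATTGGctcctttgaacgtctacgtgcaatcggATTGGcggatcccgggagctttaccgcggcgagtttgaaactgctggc
Ccnb2 (chr9:70421555-70421704, minus strand): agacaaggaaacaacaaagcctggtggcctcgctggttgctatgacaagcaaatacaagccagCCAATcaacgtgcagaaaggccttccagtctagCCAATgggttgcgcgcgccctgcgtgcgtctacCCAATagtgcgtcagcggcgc
Top2a (chr11:99024190-99024339, minus strand): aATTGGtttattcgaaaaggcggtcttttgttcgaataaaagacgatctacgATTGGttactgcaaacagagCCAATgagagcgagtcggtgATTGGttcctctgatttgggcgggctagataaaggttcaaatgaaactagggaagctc

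In this build and table the Cdk1 window holds 2 boxes, that of Ccnb2 3 and that of Top2a 4. These letters do not show that a factor was bound in these samples.

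The highest log2 fold change among all genes tested was that of a slow muscle gene, Myh7. Of 14 slow-fibre genes, 8 were higher and none lower (median 0.77), and of 17 fast-fibre genes 5 were higher and none lower (median 0.62). In all 17 every SNX-5422+PAO value lay above every PAO value, where 11.7% of all genes tested did so. The muscle lists took more of the gene counts in SNX-5422+PAO libraries (given above), and pancreas genes, which belong to no layer of skin, took 0.167 to 0.238% of gene counts in the SNX-5422+PAO group and 0.117 to 0.180% in the PAO group (exact p = 0.3), with none of 20 called (median 0.51; lowest p for Pcsk1n, 0.61 ± 0.40, and the elastase gene Cela1, 0.58 ± 0.43). All 20 pancreas changes were above 0, and in 10 every SNX-5422+PAO value exceeded every PAO value, where 11.7% of all genes did so. With the muscle share of gene counts as a covariate, a fit added after seeing the data, 4 fast-fibre genes were higher (list median 0.17) and 7 slow-fibre genes were higher and 1 lower (median 0.61). With the muscle lists as covariate, no fast-fibre gene was called (median -0.59), and 1 slow-fibre gene was higher and 1 lower (median 0.38). Both covariates are built from these same genes, so neither fit can decide whether the genes changed. Fast-fibre genes called higher numbered 16 with only the 6 libraries fitted, 13 with no filter on low counts and 8 with DESeq2. The amount of muscle in a sample and its expression per fibre cannot be told apart here.

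The slow-fibre genes with the largest rises were near 0 in PAO skin and rose unevenly. Myh7, the slow myosin heavy chain of slow and cardiac muscle, had 82.2, 11.8 and 34.3 CPM in SNX-5422+PAO skin, against 0.111, 0 and 0 CPM in PAO skin and 0.161, 0.186 and 0.130 CPM in control skin. With 2150 counts in the SNX-5422+PAO group and 2 in the PAO group, the ratio was 1165 (95% interval 322 to 9625, for counting error only). Myl3, a slow myosin light chain, had 206 counts in the SNX-5422+PAO group and 1 in the PAO group (ratio 223, interval 39.6 to 8859). The slow myosin and troponin genes Myl2 (4.75 ± 0.69), Tnnc1 (3.95 ± 0.57), Tnni1 (3.75 ± 0.50) and Tnnt1 (3.37 ± 0.42) rose too, with Tnnt1 the highest of the 4 in PAO skin, at 1.44 ± 0.201 CPM (SD, n = 3). In each of these genes SNX-5422+PAO library 1 was the highest and library 2 the lowest of its group, as in Tnnt1, with 23.3, 6.35 and 15.1 CPM in SNX-5422+PAO skin against 1.22, 1.48 and 1.62 CPM in PAO skin. Igfn1, a gene of the Z-disc in muscle, varied widely, with 131, 0.653 and 47.6 CPM in SNX-5422+PAO skin against 0.167, 0.192 and 0.202 CPM in PAO skin (8.27 ± 1.32, adjusted p = 0.002). Its change was 6.95 without SNX-5422+PAO library 1, where that of Tnnc1 was 3.15 and that of Myh7 9.04, while the fitted change of Myh7 was 12.83 without PAO library 1, which held its only 2 counts in that group, and 9.35 without PAO library 3. The median of the slow list was also 0.77 with Myh7 and Myl3 at the lower end of their counting intervals.

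Other muscle genes had been low after PAO and stood near control in SNX-5422+PAO skin. Mylk4, a myosin light chain kinase family gene, stood at 120.1, 242 and 182 CPM in SNX-5422+PAO skin, against 16.3, 17.7 and 17.8 CPM in PAO skin and 184, 365 and 218 CPM in control skin (3.39 ± 0.37, adjusted p = 0.000172). Aqp4, the water channel of fast fibres and glia, stood at 24.1, 20.6 and 22.5 CPM in SNX-5422+PAO skin, against 2.89, 2.82 and 3.14 CPM in PAO skin and 14.1, 41.4 and 22.4 CPM in control skin (2.92 ± 0.33, adjusted p = 0.000224). Tmem233, a membrane protein gene, stood at 26.7, 25.3 and 26.9 CPM in SNX-5422+PAO skin, against 4.67, 3.14 and 3.39 CPM in PAO skin and 21.7, 44.0 and 28.2 CPM in control skin (2.81 ± 0.26, adjusted p = 3.23e-05). In all 3 genes the SNX-5422+PAO values overlapped the control values and did not overlap the PAO values.

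Mybph, a myosin binding protein, followed another course (ENSMUSG00000042451.13). It stood at 51.9, 58.9 and 56.8 CPM in SNX-5422+PAO skin, against 9.11, 6.80 and 9.16 CPM in PAO skin and 6.31, 6.04 and 6.26 CPM in control skin (2.73 ± 0.17, adjusted p = 5.09e-07). Both other groups were low, and it had the smallest p-value of all genes in this comparison. Among fast-fibre genes, the calcium store gene Casq1 stood at 278, 295 and 301 CPM in SNX-5422+PAO skin, against 123, 123 and 127 CPM in PAO skin (1.23 ± 0.21). The myosin gene Myh2 stood at 1193, 896 and 1004 CPM in SNX-5422+PAO skin, against 567, 348 and 514 CPM in PAO skin (1.11 ± 0.19), and the giant filament gene Neb changed by 0.64 ± 0.15. Myoglobin (Mb) changed by 0.84 ± 0.20. Myh8, the perinatal myosin that returns in regenerating fibres, rose to 26.9, 22.4 and 20.7 CPM in SNX-5422+PAO skin, against 9.34, 8.21 and 10.4 CPM in PAO skin and 5.30, 5.48 and 5.48 CPM in control skin (1.32 ± 0.22). The calls of Neb and Mb ended without SNX-5422+PAO library 3 or PAO library 1 or 3, and that of Mb also without SNX-5422+PAO library 1. The count of raised fast-fibre genes was 2 without SNX-5422+PAO library 3, PAO library 1 or PAO library 3, 3 without SNX-5422+PAO library 2, and 16 when the 6 libraries were fitted alone.

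Of 21 genes of muscle stress and regeneration, 2 were higher and 2 lower (median 0.27). Ankrd1, a stress-induced titin partner, fell to 139, 115 and 119 CPM in SNX-5422+PAO skin, against 365, 234 and 311 CPM in PAO skin and 12.3, 3.90 and 8.08 CPM in control skin (-1.28 ± 0.23, adjusted p = 0.00396). Gadd45a, induced by growth arrest and in denervated muscle, fell to 6.15, 6.35 and 10.9 CPM in SNX-5422+PAO skin, against 24.1, 27.1 and 21.4 CPM in PAO skin and 6.96, 7.16 and 6.84 CPM in control skin (-1.64 ± 0.19, adjusted p = 0.000253). H19, an imprinted RNA of growing muscle, rose by 0.72 ± 0.17 beside Myh8, a call that ended without SNX-5422+PAO library 2 or 3 or PAO library 1 or 3. Of 27 nuclear genes of oxidative phosphorylation all changes were above 0 (median 0.29), and 2 were called, Ndufs1 (0.40 ± 0.11) and Uqcrc2 (0.47 ± 0.13), both of which lost the call in all 6 leave-one-out fits. The list held 11 raised genes with only the 6 libraries fitted, 7 with no filter on low counts and 5 with DESeq2, and none with total-count scaling. With the muscle share as covariate none was called (median 0.029), and with the muscle lists as covariate 3 were lower and none higher (median -0.56). None of 10 mitochondrially encoded genes was called (median 0.31; mt-Co1 0.46 ± 0.18 and mt-Cytb 0.38 ± 0.17), nor was either mitochondrial ribosomal RNA (mt-Rnr2 0.34 ± 0.24 and mt-Rnr1 0.26 ± 0.33). The glucose transporter gene Slc2a4 of muscle and fat, the single raised gene of 15 adipocyte markers, stood at 162, 115 and 136 CPM in SNX-5422+PAO skin, against 77.9, 76.1 and 81.4 CPM in PAO skin (0.81 ± 0.20), and its call ended in 5 leave-one-out fits, all but the one without SNX-5422+PAO library 2.

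**Figure D4:**
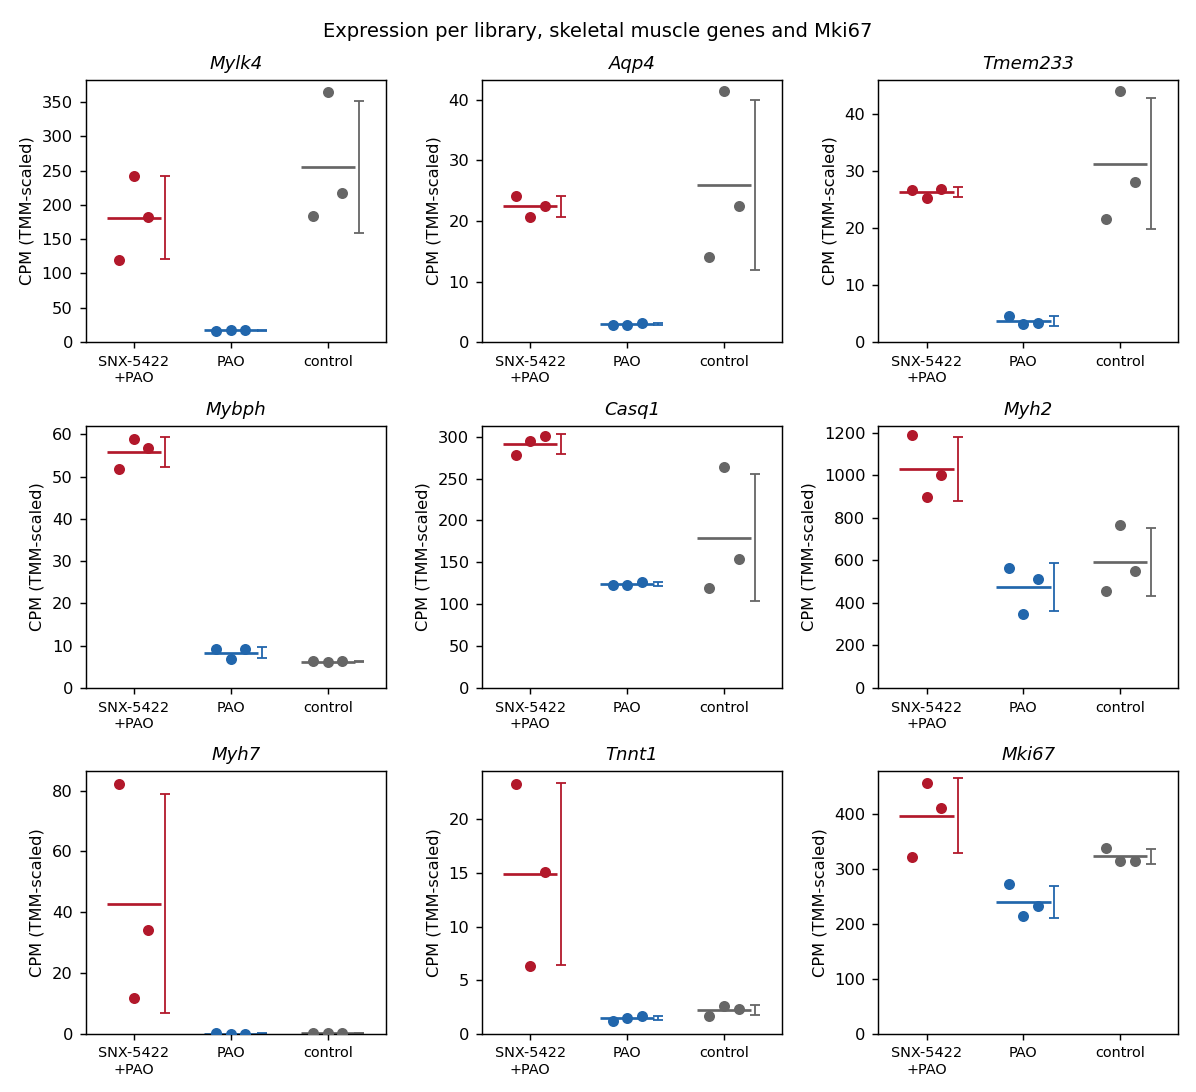
CPM in each library of SNX-5422+PAO, PAO and control skin for 8 muscle genes and Mki67, with points for libraries 1, 2 and 3 from left to right, a line at the mean and a bar of 1 SD (n = 3). Mylk4, Aqp4 and Tmem233 are low in PAO skin alone, Mybph, Myh7 and Tnnt1 are high in SNX-5422+PAO skin alone, and Casq1, Myh2 and Mki67 shift by smaller amounts.

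Of 15 nerve and melanocyte markers, 5 were higher and none lower, while 8 changes were above 0 and 7 below (median 0.12). All 5 raised genes belong to pigment cells, and they were singled out after their values were seen. Pmel, which builds the fibrils of the melanosome, stood at 16.1, 67.2 and 45.5 CPM in SNX-5422+PAO skin, against 9.06, 9.30 and 8.05 CPM in PAO skin and 21.6, 13.5 and 19 CPM in control skin (2.28 ± 0.38, adjusted p = 0.0026). The melanin enzyme genes Dct (1.91 ± 0.35), Tyrp1 (2.21 ± 0.44) and Tyr (2.24 ± 0.48) and the melanosome gene Mlana (2.48 ± 0.56) rose as well. In all 5 genes SNX-5422+PAO library 2 was highest and library 1 lowest of its group. The calls of Tyr and Mlana ended without SNX-5422+PAO library 2 or PAO library 3, and that of Mlana also without SNX-5422+PAO library 3 or PAO library 1. The count of raised genes was 3 without SNX-5422+PAO library 2 or PAO library 3. None of 25 hair follicle keratins and regulators was called (median 0.49, changes between -0.96 and 1.39), the lowest p-values being those of the hair matrix factor gene Lef1 (1.39 ± 0.56) and the keratin gene Krt35 (1.39 ± 0.67). The list held 6 raised genes with no filter on low counts, 3 with the muscle share as covariate and 16 with the muscle lists as covariate (median 3.72). The hair follicle list took 0.0831, 0.245 and 0.191% of gene counts in SNX-5422+PAO libraries 1, 2 and 3, against 0.207, 0.129 and 0.176% in PAO libraries 1, 2 and 3. Library 2 was thus highest and library 1 lowest in the SNX-5422+PAO group, the same order as in the pigment genes, and the part of hair follicles in the pigment result was not tested.

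Other lists held few or no called genes. None of 20 sebaceous gland lipid genes (median 0.21), 23 cholesterol synthesis genes (median 0.11) or 23 hypoxia and glycolysis genes (median -0.05) was called. The lowest p-values of these lists belonged to the fatty acid elongase genes Elovl5 (0.48 ± 0.16) and Elovl3 (0.54 ± 0.30), the sterol synthesis genes Hsd17b7 (0.23 ± 0.12) and Sqle (-0.13 ± 0.08), and the glycolysis genes Gapdh (0.46 ± 0.13, adjusted p = 0.0522) and Hk1 (-0.29 ± 0.09, adjusted p = 0.0709). Of 17 circadian clock genes 1 was higher, Bhlhe41 (0.46 ± 0.12), and its call ended in all 6 leave-one-out fits.

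SNX-5422 was also given after CEES, which asks whether the inhibitor moved the same genes after another agent. SNX-5422+CEES skin differed from CEES skin in 1576 genes, or 7% of genes tested, with 797 higher (3.54%) and 779 lower (3.46%). These libraries are not shared with the PAO comparison. Pancreas genes took 0.0013 to 0.0020% of gene counts in CEES libraries and 0.0037 to 0.0198% in SNX-5422+CEES libraries. In PAO libraries they took 0.117 to 0.180%, and the reason for this difference was not tested. Of the 1343 genes called after PAO, 390 were called after CEES too, which is 29% of the genes called after PAO and 24.7% of those called after CEES, and 366 of the 390 had the same direction (171 higher and 195 lower in both). The difference between the inhibitor effects, tested as an interaction in the same fit, was called for 166 genes, or 0.737% of genes tested, 42 with a higher and 124 with a lower change after PAO than after CEES, and 91 of the 166 were also called after PAO.

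Several genes fell in both comparisons. Cxcl1 changed by -2.23 ± 0.28 after CEES, against -2.05 after PAO, Msr1 by -1.50 ± 0.18, against -1.19, and Mmp9 by -1.02 ± 0.17, against -1.11, and the differences were not called (adjusted p = 0.909, 0.664 and 0.928). Casq1 rose by 1.25 ± 0.21 after CEES and 1.23 after PAO, and Myh8 by 1.82 ± 0.21 and 1.32. For Mmp3 the change after CEES was -0.79 ± 0.30 (adjusted p = 0.143) and that of Hmox1 -0.74 ± 0.26 (adjusted p = 0.106), and the differences from the PAO values were not called (adjusted p = 0.0768 and 0.0547). None of 28 mitotic genes was called after CEES (median 0.13), and none of the differences was called either.

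Several epidermal genes moved in opposite directions. Krt6b had 615, 1689 and 1369 CPM in SNX-5422+CEES skin, against 358, 416 and 330.0 CPM in CEES skin (1.73 ± 0.26, adjusted p = 0.00135). It was thus higher with the inhibitor there and lower with it after PAO (difference -2.95 ± 0.37, adjusted p = 0.00165). The difference was -2.23 ± 0.29 for Krt16 and -1.45 ± 0.23 for Krt6a, and in the wound list 4 genes differed, the fourth being Ereg (-1.71 ± 0.32). In the cornified layer 6 genes differed, among them Klk7 (-0.93 ± 0.15), Ivl (-1.53 ± 0.26), Tgm1 (-1.43 ± 0.32) and the envelope precursor gene Lce1a2 (-2.75 ± 0.48), a member of a family of near-identical copies that was not called between SNX-5422+PAO and PAO skin (-1.14 ± 0.35). Tmprss11g differed by -2.87 ± 0.46.

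Myeloid and stress genes also diverged. Atf3 was higher with the inhibitor after PAO (1.09) and lower with it after CEES (-1.0 ± 0.17), a difference of 2.10 ± 0.23 (adjusted p = 0.000615), and Clec4e changed by 1.28 and -0.93 ± 0.22 (difference 2.22 ± 0.32, adjusted p = 0.00578). The neutrophil chemokine gene Cxcl3 had 3.13, 2.73 and 3.84 CPM in SNX-5422+PAO skin, against 1.22, 1.09 and 1.21 CPM in PAO skin (1.45 ± 0.44, adjusted p = 0.0628), and changed by -1.49 ± 0.34 after CEES (difference 2.94 ± 0.55). The related chemokine gene Cxcl2 (0.65 ± 0.37 after PAO, -1.62 ± 0.33 after CEES) and Il1b (-2.08 ± 0.28 after CEES) differed in the same direction. Among muscle genes Mybph was higher after PAO (2.73) and lower after CEES (-0.94 ± 0.15), a difference of 3.67 ± 0.23 (adjusted p = 5.58e-07), Tnni1 differed by 3.12 ± 0.67 and Tnnt1 by 2.82 ± 0.58, and the skeletal muscle share of gene counts was 7.01 to 9.02% in SNX-5422+CEES and 3.81 to 4.50% in CEES libraries. The count of called differences was 101 without SNX-5422+PAO library 2, 47 without SNX-5422+PAO library 3, 96 without PAO library 1 and 45 without PAO library 3.

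**Figure D5:**
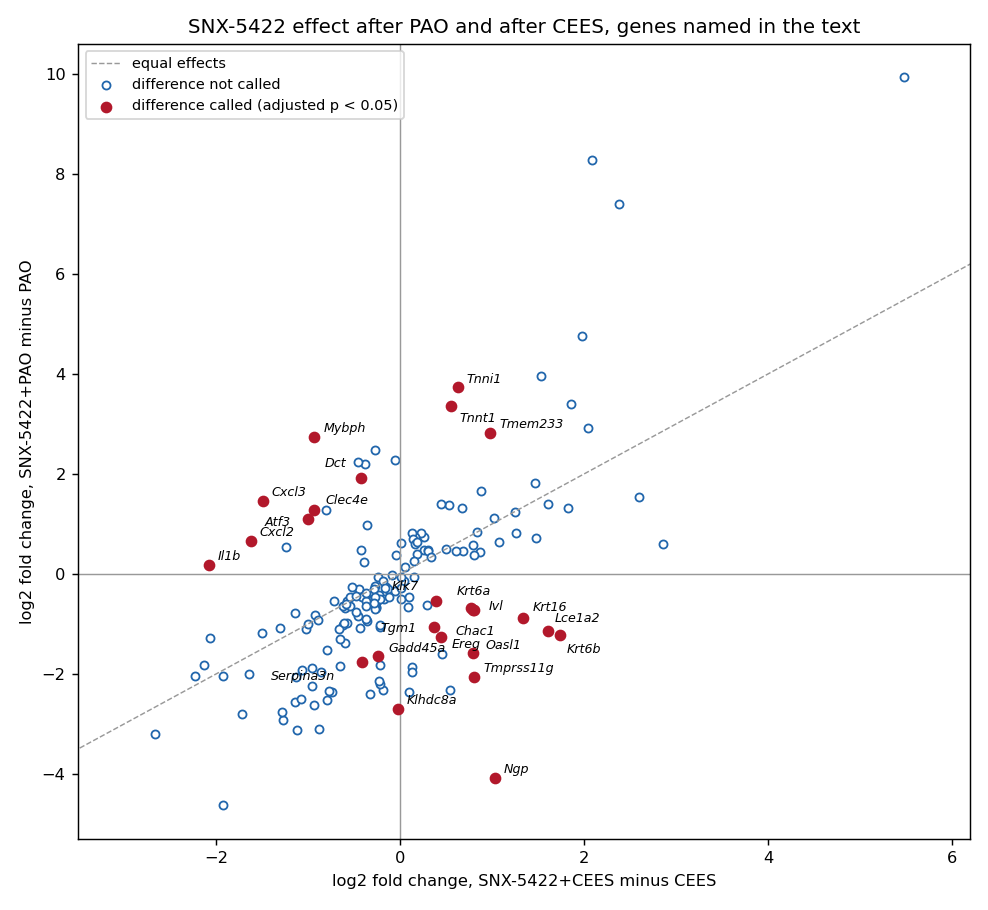
Log2 fold change with SNX-5422 after PAO (vertical axis, SNX-5422+PAO minus PAO) against that after CEES (horizontal axis, SNX-5422+CEES minus CEES) for the genes named in the text, each point a gene, with genes whose difference was called filled and labelled and a dashed line where both changes are equal. Krt6b, Krt16 and Krt6a lie below 0 on the vertical and above 0 on the horizontal axis, and Atf3, Clec4e and Mybph lie in the opposite quadrant.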

How the data were processed

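RNA of 15 skin libraries (5 groups of 3) was sequenced after ribosomal RNA removal. Per the submitters' processing notes, reads were handled with bcl2fastq 2.18.0.12, Trim Galore 0.6.7, STAR 2.7.10a and HTSeq 2.0.2 on GRCm39. The sources used here give neither the annotation release nor the strand setting, so reads of overlapping and antisense genes may not be told apart. The authors deposited raw read counts per gene, with no normalization, and the values used here are those counts without the HTSeq summary rows. Those rows hold 35.2 to 46.9% of reads outside genes, 2.08 to 2.53% ambiguous reads and 4.78 to 9.76% multiply aligned reads per library. Gene counts were 16838212 to 28887367 per library, so genes with few counts have wide errors. Symbols were matched to 52093 of 53700 Ensembl identifiers, and 1607 had none.

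The counts of all 15 libraries were fitted together in edgeR 4.0.16 (R 4.3.3), with TMM scaling (factors 0.820 to 1.19), the filterByExpr filter, which left 22529 genes, a quasi-likelihood fit with 10 residual degrees of freedom and Benjamini-Hochberg adjustment over all genes tested. The standard error is the size of the log2 fold change over the square root of F. Counting intervals are exact at 95% and cover counting error only. No pair of libraries within the 2 groups was a plain repeat, since chi-square per degree of freedom ran from 6.99 to 50.2. In the SNX-5422+PAO group it was 6.99 for libraries 2 and 3, 25.4 for libraries 1 and 3 and 28.0 for libraries 1 and 2. In the PAO group it was 12.7 for libraries 1 and 3, 20.2 for libraries 2 and 3 and 50.2 for libraries 1 and 2. In many lists, though not all, the share of gene counts in library 3 lay between those of libraries 1 and 2. NRF2 targets took 0.363, 0.240 and 0.311% in PAO libraries 1, 2 and 3, and mitotic genes 0.102, 0.134 and 0.120% in SNX-5422+PAO libraries. Whether libraries share material was not tested. If they do, the p-values, the statements of no overlap and the leave-one-out fits rest on fewer than 3 separate samples a group. Replicate numbers did not pair libraries of SNX-5422+PAO and PAO (correlations of deviations 0.030, 0.028 and 0.0097 for the same number). On simulated counts for SNX-5422+PAO against PAO with 22136 genes tested, the fit called 21 of 67 genes changed 1.5-fold, 46 of 67 changed 2-fold and 65 of 66 changed 4-fold, all in the right direction, with 3 unchanged genes called. The simulated counts were drawn independently for each gene and library, with no shift shared by many genes of a library. They therefore do not measure the rate of false calls in these data.

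The gene lists and the members described were chosen with earlier results of these data known. Genes were named by rule as the 10 largest rises and falls among called genes with a symbol, at least 5 CPM in a group and no overlap, up to 3 called members of each list in each direction with the smallest p, or the 2 smallest p where none was called, the heat shock genes given, and the 3 largest differences of the inhibitor effects in each direction. All other named genes were chosen after their values were seen, and some list members are not reported here. Alternatives were RLE, upper-quartile and total-count scaling, TMM without mitochondrial ribosomal RNA, no filter or a stricter one, DESeq2 1.42.0, fits of 6 or 9 libraries, a replicate block, mitochondrial and muscle covariates and leaving out each library. Promoter windows came from RefSeq sequences on GRCm38.p6, whose coordinates are not those of the counts.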

Additional observations from a re-analysis of the deposited data

Results flagged for a closer look

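By the interaction term of the edgeR fit over all 15 libraries, the effect of SNX-5422 differed between PAO and CEES skin in 25 named genes. The text names 176 genes. Some were named for the size of this difference and others after their values were seen. Over all genes tested the difference was called for 166, or 0.737%, and the 25 are not a share to set beside it. Each value here is the log2 change after PAO minus that after CEES, and all have an adjusted p under 0.05.

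The change was higher after PAO in 10 of them. Among muscle genes the difference was 3.67 for Mybph, 3.12 for Tnni1, 2.82 for Tnnt1 and 1.84 for Tmem233. Among cytokine and myeloid genes it was 2.94 for Cxcl3, 2.27 for Cxcl2, 2.25 for Il1b and 2.22 for Clec4e. The remaining 2 were Atf3 (2.10) and the pigment gene Dct (2.34). Il1b, Cxcl2 and Cxcl3 were called lower with the inhibitor after CEES and were not called after PAO.

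The change was lower after PAO in the other 15. In the epidermis it was -2.95 for Krt6b, -2.87 for Tmprss11g, -2.75 for Lce1a2, -2.23 for Krt16, -1.71 for Ereg, -1.53 for Ivl, -1.45 for Krt6a, -1.43 for Tgm1 and -0.93 for Klk7. For the other 6 it was -5.12 for Ngp, -2.67 for Klhdc8a, -2.37 for Oasl1, -1.52 for Chac1, -1.40 for Gadd45a and -1.35 for Serpina3n. Of all 25, Mybph, Atf3, Clec4e, Krt6a, Krt6b, Krt16, Klk7, Ivl and Chac1 were called in both comparisons, with opposite signs.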

How the results depend on the processing

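The number of genes called between SNX-5422+PAO and PAO skin was 946 to 2010 under the alternatives other than leaving out a library, against 1343. Of the 1343 calls, 323 were also made with the muscle lists as covariate and 713 with the muscle share. The groups overlapped in neither covariate, so these counts do not tell how many calls go with the amount of muscle. With 1 library left out the number of called genes ran from 566 to 1453, that of raised genes from 239 to 574 and that of lowered genes from 296 to 975. Raised genes numbered 335 with total-count scaling and 876 with no filter on low counts, and lowered genes 1568 with total-count scaling. The called differences between inhibitor effects numbered 899 with no filter, 623 with DESeq2, 678 with the muscle lists as covariate, 400 with the muscle share as covariate (added after seeing the data) and 45 to 243 with 1 library of SNX-5422+PAO or PAO left out, against 166. The cause of these shifts was not tested. With the replicate block 1071 genes were called among 9 libraries, against 1063 without the block.

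Over 176 named genes and their alternatives, 2830 of 3340 values kept direction and call, 418 kept direction only, 64 gained a call and 28 changed sign. Calls of 77 of these genes ended, with the direction kept, under the muscle lists as covariate, and 33 under the muscle share. Of the sign changes 13 came with the muscle lists as covariate and included called genes with large rises. Myh2 and Neb are among the fast-fibre genes that make up this covariate, so that fit cannot decide their change. With the muscle lists as covariate the change was -0.31 for Igfn1, -0.51 for Slc2a4, -0.021 for Myh2, -0.10 for Neb, -0.15 for Ndufs1, -0.31 for Uqcrc2, -0.45 for Nr4a2, -1.60 for Il1b, -0.57 for Cxcl2, -0.017 for Ppargc1a, -0.32 for Dnajb5, -0.59 for Elovl3 and -0.31 for Gapdh. Il1b was at -0.33 with the muscle share as covariate. With the mitochondrial ribosomal RNA share as covariate, Hsp90ab1 was at 0.0051, Hsp90b1 at 0.053, Hsph1 at 0.12 and mt-Rnr1 at -0.086. Hsph1 was at 0.0052 in the 6 libraries alone. With 1 library left out, Hsp90ab1 ranged from -0.16 to 0.0080, Hsp90b1 from -0.19 to 0.085, Bag3 from -0.29 to 0.0099, Hsph1 from -0.18 to 0.11, Il1b from -0.15 to 0.34 and mt-Rnr1 from -0.054 to 0.68.

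With 3 libraries a group, genes changed 1.5-fold were mostly missed in simulated counts (31.3% called), so a gene not called is not shown to be unchanged. There was no group with SNX-5422 alone, so the inhibitor's effect on uninjured skin was not analysed here.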

Other observations

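Lysosomal proteases, a group chosen after its values were seen, were lower in SNX-5422+PAO skin in 9 of 14 genes and higher in none. Of all genes tested, 3.39% were lower. The median change was -0.58, against -0.01 over all genes tested. PAO had raised 10 of the 14 over control, where 11.9% of all genes rose. Both counts rest on the same PAO libraries. Cathepsin L (Ctsl), which degrades proteins in lysosomes, stood at 159.8, 126 and 134 CPM in SNX-5422+PAO skin, against 294, 293 and 308 CPM in PAO skin and 114, 153 and 136 CPM in control skin (-1.09 ± 0.11, adjusted p = 7.24e-05 in edgeR's test). Its SNX-5422+PAO values overlapped those of control skin. Ctsk, the collagen-degrading cathepsin of osteoclasts and fibroblasts, fell to 62.0, 88.5 and 79.0 CPM in SNX-5422+PAO skin, against 189.6, 132 and 175 CPM in PAO skin (-1.11 ± 0.20), and legumain (Lgmn), which processes cathepsins, to 141, 98.3 and 116 CPM in SNX-5422+PAO skin, against 238, 204 and 228 CPM in PAO skin (-0.91 ± 0.14). Ctsb (-0.65 ± 0.10), Ctsd (-0.60 ± 0.10) and Ctsz (-0.54 ± 0.09) fell too, and all 6 calls held without any 1 library.

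Acute-phase proteins and components of the interleukin-6 pathway, likewise chosen after their values were seen, were lower in 14 of 17 genes and higher in none. The median was -1.11, and 3.39% of all genes tested were lower. Saa3 and Stat3, which are among the 14, were already counted above in the macrophage and HSP90 client lists. PAO had raised 13 of the 17 over control, where 11.9% of all genes rose. Both counts rest on the same PAO libraries, so genes picked for a fall with SNX-5422 tend to show a rise with PAO. Serpina3n, an inhibitor of serine proteases, stood at 135, 74.2 and 93.9 CPM in SNX-5422+PAO skin, against 335, 359 and 338 CPM in PAO skin and 19.4, 13.3 and 17.3 CPM in control skin (-1.77 ± 0.21, adjusted p = 0.000344), so that SNX-5422+PAO skin lay between the other groups. Socs3, the feedback inhibitor that STAT3 induces, fell to 59.1, 41.8 and 54.4 CPM in SNX-5422+PAO skin, against 104, 97.7 and 105 CPM in PAO skin (-0.98 ± 0.16), and Osmr, the oncostatin M receptor, changed by -0.65 ± 0.10. Saa1 (-2.51 ± 0.36) and Saa2 (-3.11 ± 0.51), close copies whose reads may be shared, and haemopexin (Hpx, -2.77 ± 0.45) were called lower, with less than 5 CPM in every PAO library. All of these calls held without any 1 library.

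Several regulators of muscle metabolism rose beside the contractile genes, again chosen after their values were seen. Mstn, the gene of myostatin, which restrains muscle growth, stood at 99.7, 79.1 and 80.3 CPM in SNX-5422+PAO skin, against 21.8, 28.9 and 22.5 CPM in PAO skin and 98.2, 208 and 113 CPM in control skin (1.83 ± 0.29, adjusted p = 0.00182). Ppargc1a, the coactivator of mitochondrial genes, stood at 55.7, 20.1 and 31.7 CPM in SNX-5422+PAO skin, against 9.73, 12.2 and 12.4 CPM in PAO skin (1.65 ± 0.28), the uncoupling protein gene Ucp3 at 108, 53.8 and 69.1 CPM in SNX-5422+PAO skin, against 21.8, 41.9 and 28.8 CPM in PAO skin (1.32 ± 0.23), and the glutamine transporter gene Slc38a3 at 35.1, 27.7 and 26.5 CPM in SNX-5422+PAO skin, against 10.1, 12.4 and 11.3 CPM in PAO skin (1.40 ± 0.14). The muscle share of gene counts was higher in the same libraries. With the muscle lists as covariate the change was 0.82 for Mstn, -0.017 for Ppargc1a, 0.41 for Ucp3 and 0.82 for Slc38a3, and none was called (adjusted p from 0.0675 to 0.989 in edgeR's test). With the muscle share as covariate, a fit added after seeing the data, all 4 were called higher, with changes from 1.10 to 1.36.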
